A study of Homo sapiens with 6 samples.

Results

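The genes described here encode the enzymes and carriers of the urea cycle and of amino acid breakdown. They are the rows of the deposited expression table whose Ensembl identifier carries 1 of 48 gene symbols in GENCODE release 29, and all 48 were found among the 29908 rows of the table. The rule picks rows by name and uses no measured value, although the symbols were listed with earlier results of these data known.

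The study asked how mRNA changes when DAGLA, the diacylglycerol lipase that makes the endocannabinoid 2-arachidonoylglycerol, is knocked down in hepatocellular carcinoma cells. Hep3B, a human hepatocellular carcinoma line, was infected with lentivirus at a multiplicity of infection of 5. Hep3B-Con (3 libraries) received a control virus, an empty vector per the series design. Hep3B-KD (3 libraries) received a virus carrying a short hairpin against DAGLA (shDAGLA). The sample titles name the control shControl, so whether it carried a control hairpin is not known. Both groups were then selected with puromycin, so both carry an integrated vector and have been exposed to the drug. The model is 1 hairpin in 1 cell line, and although the submitters call the replicates biological, no source used here says that they came from separate infections, so the p-values measure only the spread between these libraries, which may be technical.

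Liver is the main site where amino acids are stripped of nitrogen. Aminotransferases move the amino group onto glutamate, glutamate dehydrogenase releases it as ammonia, and the urea cycle, which is split between mitochondria and cytosol, turns ammonia and aspartate nitrogen into urea. The remaining carbon skeletons are broken down in a separate route for each amino acid, most of it in mitochondria, and hepatocellular carcinoma cells are known for losing part of this programme.

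Each library held between 15861039 and 17572714 reads assigned to genes, with 22338 to 22605 genes above 0 in Hep3B-Con and 23416 to 23591 in Hep3B-KD. DAGLA itself measured 9.42, 9.40 and 9.02 FPKM (fragments per kilobase of exon, scaled to the depth of the library) in Hep3B-Con and 4.62, 4.46 and 4.78 FPKM in Hep3B-KD, a log2 fold change of -0.99 ± 0.04 (SE, limma adjusted p = 5.25e-06). The labelled cell type was checked with hepatocyte markers. All 6 (ALB, AFP, APOA2, SERPINA1, TTR and FGB) were at or above 0.5 FPKM in every library, and their summed level was 4430 to 4533 FPKM in Hep3B-Con and 6457 to 6546 FPKM in Hep3B-KD. ALB and APOA2 made up most of that sum, and 5 of the 6 were called higher while FGB was lower, at 19.5 and 9.96 FPKM (log2 fold change -0.96). Markers of other cells were scarce for leukocytes (at most 0.0377 FPKM for PTPRC), endothelium (0.194 to 0.385 FPKM summed over PECAM1 and CDH5) and fibroblasts (3.32 to 3.60 FPKM in Hep3B-Con and 2.33 to 2.45 FPKM in Hep3B-KD, with 1 of 3 markers above 0.5 FPKM in every library). The 3 cholangiocyte markers KRT7, KRT19 and SOX9 summed to 152.7 to 199.0 FPKM in Hep3B-Con and 203.0 to 244.0 FPKM in Hep3B-KD, with KRT19 and SOX9 higher and KRT7 lower (2.15 and 0.710 FPKM). The part of these marker differences in the results below was not tested. In bulk RNA, fewer cells with a transcript and less of it per cell cannot be told apart.

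Because the knockdown relies on a single hairpin, its sequence is shown first, followed by every place where its seed is matched in a 3′ untranslated region of a member that was tested. The seed, bases 2 to 8 of the guide strand, is the stretch through which a small RNA can also bind transcripts other than its target. Capitals mark the seed in the guide and the matching letters GCCTTCA elsewhere.
Guide strand of the hairpin: tTGAAGGCcttgttgtcgc
Site in GPT2, chr16:46930109-46930137 (+): cagagtgttttGCCTTCAtgttagcttcc
First site in ALDH7A1, chr5:126543220-126543248 (-): ttaaaacatatGCCTTCAatttgttcctc
Second site in ALDH7A1, chr5:126542254-126542282 (-): attttcttgttGCCTTCAttctaacaaag
First site in HAL, chr12:95973732-95973760 (-): tgccttaatatGCCTTCAtaaataaccat
Second site in HAL, chr12:95972696-95972724 (-): tgacagcacacGCCTTCAagggaacttca

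The whole 19-base target of the hairpin was found in transcripts of DAGLA and of no other gene in the annotation. The seed match was present in the longest annotated 3′ untranslated region of 3 of the 33 members tested (9.1%), against 14.6% of 11189 genes tested that have such a region. The 3 members with a match did not move together. HAL and GPT2 were lower in Hep3B-KD and ALDH7A1 was higher, with the values given below. The median log2 fold change was -0.71 over these 3 members and -0.07 over the others, and over all genes it was -0.04 with a match and 0.11 without. Outside the 48, genes named below with a match were HNF4A, CEBPA, NR3C1, PYCR1 and AHCY, which were lower in Hep3B-KD. PPARGC1A, which was higher, and MAT2A, which did not pass, also had a match. Some of these genes were chosen by the size of their change, so the names give no share of lower genes. Other genes of amino acid breakdown with a match were MAT2B, ASRGL1 and ASPG. MAT2B was called higher (log2 fold change 0.22) and ASRGL1 did not pass (0.35), and both outcomes depend on scaling. ASPG was not tested. A seed match is a description of letters, and whether the hairpin acted on any of these transcripts was not tested.

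Of the 48 members, 33 averaged 0.5 FPKM or more across the 6 libraries and were tested, with 30 to 8002 reads per library. None of the 33 passed that minimum in 1 group only. The other 15 (CPS1, OTC, ARG1, TAT, TDO2, KMO, KYNU, GLS2, BCKDHA, AMT, SDS, UROC1, PRODH, BHMT and GNMT) had means of at most 0.394 FPKM and at most 47 reads in any library. These 15 include the first 2 enzymes of the urea cycle and the first enzyme of tyrosine breakdown. Rows of BCKDHA, AMT and GLS2 cannot be read as a lack of the mRNA, since 64.6%, 63.1% and 82.8% of their exon bases also belong to another annotated gene and the reads there may have been discarded.

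**Figure D1:**
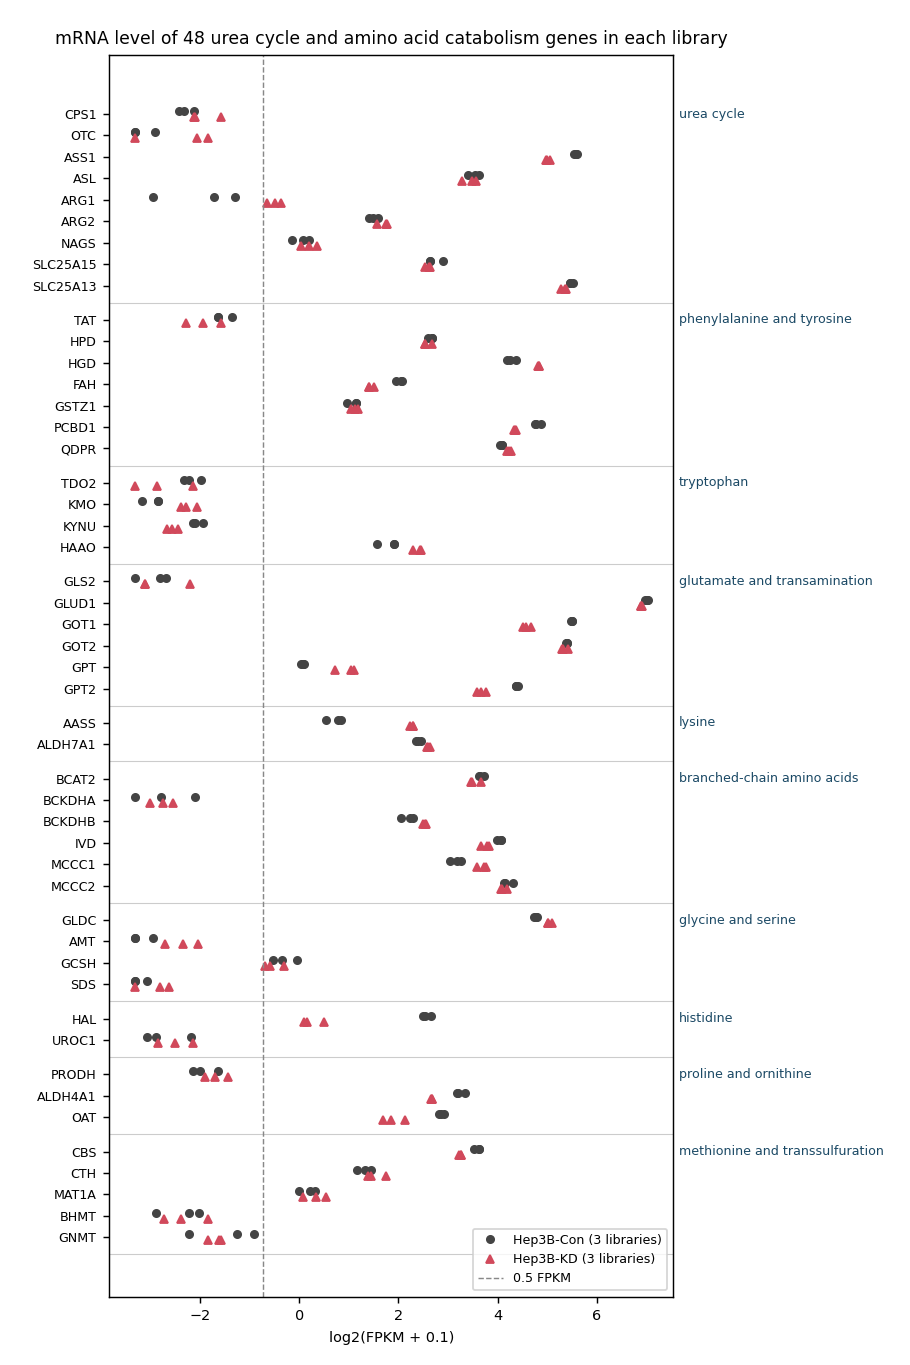
Level of each of the 48 members in each library, as log2(FPKM + 0.1) on the horizontal axis, grouped by pathway, with circles for the 3 Hep3B-Con and triangles for the 3 Hep3B-KD libraries. The dashed line marks 0.5 FPKM: GLUD1 is the highest member at 119 to 131 FPKM, and in 15 members the mean lies left of the line.

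Across the members tested, 21 of 33 (63.6%) differed between the groups at an adjusted p under 0.05 (limma, adjusted over 14221 genes), beside 59.9% of all genes. Of these, 9 were higher in Hep3B-KD, beside 36.1% of all genes, and 12 were lower, beside 23.8% of all genes. The median log2 fold change was -0.07 over the members and 0.11 over all genes, and single members ranged from -2.31 for HAL to 1.55 for AASS. In 9 members all Hep3B-KD values were above all Hep3B-Con values, in 12 all were below, and in 12 the groups overlapped, while 66.9% of all genes had groups that did not overlap. A change of at least 2-fold with an adjusted p under 0.05 was met by AASS among the higher members (5.89% of all genes were called higher by this rule) and by HAL among the lower (2.94% of all genes). The split into higher and lower depends on scaling. When the libraries were centred on the median log ratio, 7 members were called higher and 17 were called lower, their median was -0.17, and over all genes 28.6% were higher and 30.3% lower, with the median of all genes at 0.0059.

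**Figure D2:**
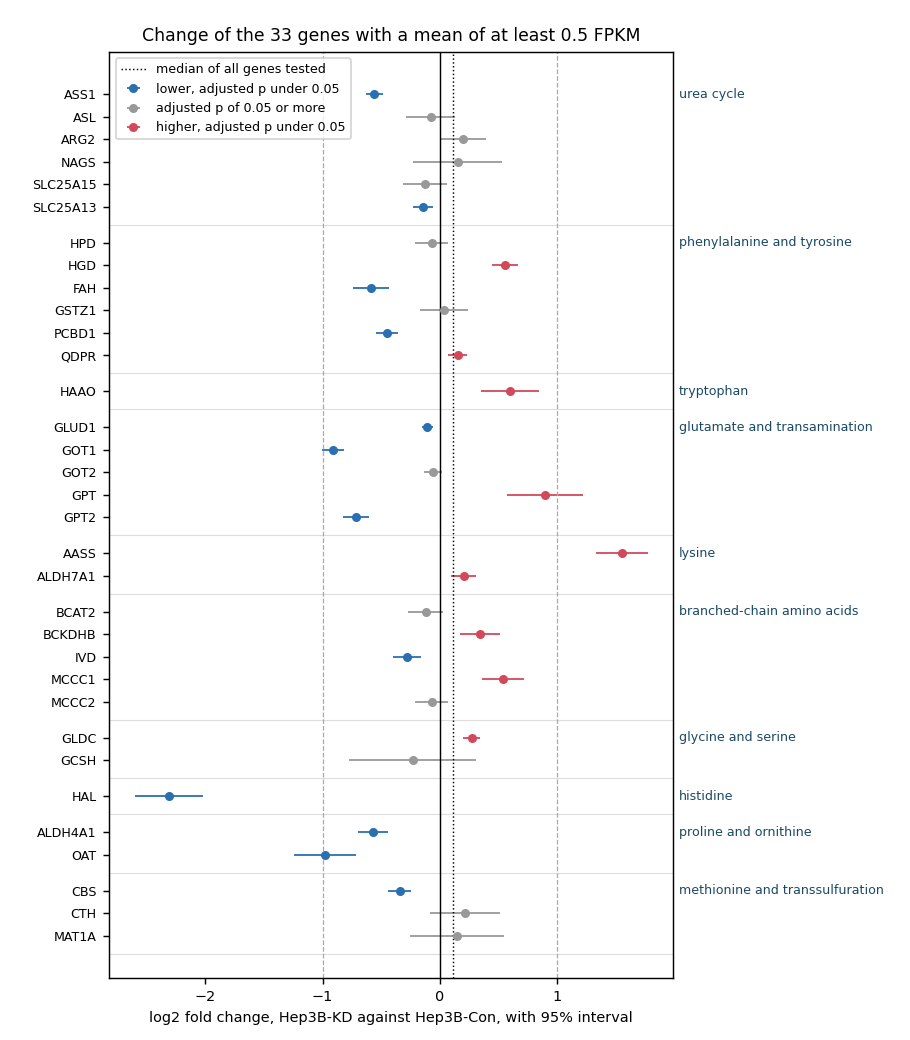
Log2 fold change of Hep3B-KD against Hep3B-Con with its 95% interval for the 33 members tested, red where higher and blue where lower at an adjusted p under 0.05 and grey otherwise; dashed lines mark 2-fold and the dotted line the median of all genes (0.11). HAL (-2.31) and AASS (1.55) lie beyond the dashed lines, and members of 1 pathway lie on both sides of 0 in most groups.

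Several urea cycle genes were barely detected in these cells, and ASS1 and SLC25A13, its best expressed genes, were lower in Hep3B-KD. Of its 9 members, 6 were tested: 2 were lower (beside 23.8% of all genes), none was higher (beside 36.1%) and 4 did not pass. CPS1, the carbamoyl phosphate synthetase that commits ammonia to the cycle, measured 0.1003, 0.0854 and 0.128 FPKM in Hep3B-Con and 0.129, 0.133 and 0.235 FPKM in Hep3B-KD, or 16 to 42 reads. OTC, which makes citrulline from ornithine, had 0 to 5 reads per library, with 0 reads in 2 Hep3B-Con libraries and 1 Hep3B-KD library. A count of 0 allows up to 3 reads, and intervals and limits of this kind cover counting error only. OTC was therefore near the detection limit in both groups, while CPS1 was low but detected in every library. The CPS1 groups did not overlap, by a narrow margin, and the difference did not pass in the fit without a filter on low values (limma adjusted p = 0.46).

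ASS1, the argininosuccinate synthase that brings in aspartate nitrogen (chr9:130444929-130501274, GRCh38), measured 47.7, 46.6 and 48.7 FPKM in Hep3B-Con and 32.0, 31.6 and 33.3 FPKM in Hep3B-KD. All 3 Hep3B-KD libraries were below all Hep3B-Con libraries. The log2 fold change was -0.56 ± 0.03 (SE, limma adjusted p = 1.01e-05). ASL, the next enzyme, which splits argininosuccinate, measured 11.6, 10.48 and 12.2 FPKM in Hep3B-Con and 11.8, 11.1 and 9.62 FPKM in Hep3B-KD. The groups overlapped, and the log2 fold change of -0.08 had a 95% interval from -0.29 to 0.13 (limma adjusted p = 0.477). Its sign turned to 0.0037 without Hep3B-KD replicate 3.

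The 2 arginases differed in level. ARG1, the cytosolic liver arginase that releases urea, measured 0.203, 0.0293 and 0.306 FPKM in Hep3B-Con and 0.610, 0.539 and 0.675 FPKM in Hep3B-KD, from 1 to 10 reads and 17 to 22 reads. The Hep3B-KD libraries were above the Hep3B-Con libraries, but in the fit without a filter on low values the difference did not pass (limma adjusted p = 0.0592). ARG2, the mitochondrial arginase, measured 2.57, 2.69 and 2.91 FPKM in Hep3B-Con and 2.87, 3.30 and 3.27 FPKM in Hep3B-KD. The lowest Hep3B-KD value fell inside the Hep3B-Con range, and the log2 fold change of 0.20 did not pass (limma adjusted p = 0.0729). ARG2 was called higher after rescaling to the same sum (0.23) and without Hep3B-KD replicate 1 (0.26), and stood at -0.0061 under quantile normalisation. ARG2 shares 37.4% of its exon bases with VTI1B on the opposite strand, and the strandedness of the counting is not given in the sources used here.

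NAGS makes N-acetylglutamate, the activator of CPS1. It measured 0.807, 0.958 and 1.04 FPKM in Hep3B-Con and 1.05, 0.927 and 1.18 FPKM in Hep3B-KD, with groups that overlapped and a log2 fold change of 0.15 (95% interval -0.23 to 0.53, limma adjusted p = 0.441). The ornithine carrier SLC25A15 measured 7.34, 6.11 and 6.15 FPKM in Hep3B-Con and 6.11, 6.03 and 5.71 FPKM in Hep3B-KD, again with overlap (log2 fold change -0.13, limma adjusted p = 0.206), and was called lower when centred (-0.23) and under quantile normalisation (-0.24). SLC25A13, the aspartate-glutamate carrier citrin that exports the aspartate used by ASS1, measured 44.2, 45.8 and 44.0 FPKM in Hep3B-Con and 38.7, 41.0 and 41.8 FPKM in Hep3B-KD. It was lower in every Hep3B-KD library by a small amount (log2 fold change -0.14 ± 0.03 SE, limma adjusted p = 0.0106), a call lost under quantile normalisation (log2 fold change -0.02).

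Genes of transamination and glutamate changed unequally within both aminotransferase pairs. Of 6 members, 5 were tested: GPT was higher (beside 36.1% of all genes), GOT1, GPT2 and GLUD1 were lower (beside 23.8%), and GOT2 did not pass. GOT1, the cytosolic aspartate aminotransferase (chr10:99396870-99431569, GRCh38), measured 44.9, 45.1 and 45.2 FPKM in Hep3B-Con and 25.3, 22.7 and 23.9 FPKM in Hep3B-KD. The Hep3B-Con libraries were almost equal and all Hep3B-KD libraries lay far below them, with a log2 fold change of -0.91 ± 0.04 (SE, limma adjusted p = 4.83e-06). It shares 19.3% of its exon bases with a gene on the opposite strand whose row is at 0.238 FPKM. GOT2, the mitochondrial form, measured 42.4, 42.1 and 41.9 FPKM in Hep3B-Con and 42.5, 39.9 and 39.3 FPKM in Hep3B-KD, with overlap and a log2 fold change of -0.06 (limma adjusted p = 0.187) that became 0.06 under quantile normalisation. GOT2 was called lower when centred (-0.16) and without Hep3B-KD replicate 1 (-0.09). The 2 aspartate aminotransferases thus stood at about the same level in Hep3B-Con, with GOT1 at 1.06 to 1.08 times GOT2, and at 0.571 to 0.609 times GOT2 in Hep3B-KD.

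The alanine aminotransferases changed in opposite directions. GPT, the cytosolic form, measured 0.9498, 0.9602 and 0.916 FPKM in Hep3B-Con and 2.06, 1.54 and 1.97 FPKM in Hep3B-KD, from 42 to 46 reads and 68 to 90 reads (log2 fold change 0.90 ± 0.14 SE, limma adjusted p = 0.00124). GPT2, the mitochondrial form, measured 20.6, 20.6 and 21.1 FPKM in Hep3B-Con and 13.4, 11.9 and 12.6 FPKM in Hep3B-KD (log2 fold change -0.71 ± 0.05 SE, limma adjusted p = 2.46e-05). Neither gene had overlapping groups. GPT2 remained the more abundant of the pair in every library. Without Hep3B-KD replicate 2 the log2 fold change of GPT was 1.02, past 2-fold.

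GLUD1, glutamate dehydrogenase, was the best expressed member, at 129, 131 and 126 FPKM in Hep3B-Con and 120, 119 and 119 FPKM in Hep3B-KD. All Hep3B-KD values lay below the Hep3B-Con values, but the size was small (log2 fold change -0.11 ± 0.02 SE, limma adjusted p = 0.00279) and it turned to 0.08 under quantile normalisation (limma adjusted p = 0.0287). GLUD1 has near-identical copies, among them GLUD2, so reads may be split between them. GLS2, the liver glutaminase, had 0 to 8 reads in a row that shares most of its exons with another gene and was not tested.

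Apart from the effect of the added 0.1 FPKM, the ratio of partner genes within each library needs no scaling between libraries. It was compared for the 6 of 10 listed pairs in which both genes were above the minimum. On the log2 scale the GPT/GPT2 ratio was -4.30, -4.29 and -4.38 in Hep3B-Con and -2.65, -2.88 and -2.62 in Hep3B-KD, a difference of 1.61. With a pseudocount of 1 this difference was 1.23, and with 0.01 it was 1.68. The GOT1/GOT2 ratio was 0.08, 0.10 and 0.11 in Hep3B-Con and -0.75, -0.81 and -0.72 in Hep3B-KD, a difference of -0.85. The MCCC1/MCCC2 ratio, between the 2 subunits of methylcrotonyl-CoA carboxylase, was -1.27, -0.88 and -0.95 in Hep3B-Con and -0.31, -0.36 and -0.61 in Hep3B-KD, a difference of 0.61. In these 3 pairs the groups did not overlap, and each gave the smallest two-sided p that an exact permutation test of 3 against 3 libraries allows (0.1, adjusted over the 6 pairs 0.2), so the design could not reach 0.05. The ratios of BCAT2 to BCAT1, MAT1A to MAT2A and SLC25A15 to SLC25A13 overlapped between groups, with differences of 0.12, 0.13 and 0.01 (exact permutation p = 0.2, 0.4 and 0.9). The last of these changed sign when single libraries were left out.

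**Figure D3:**
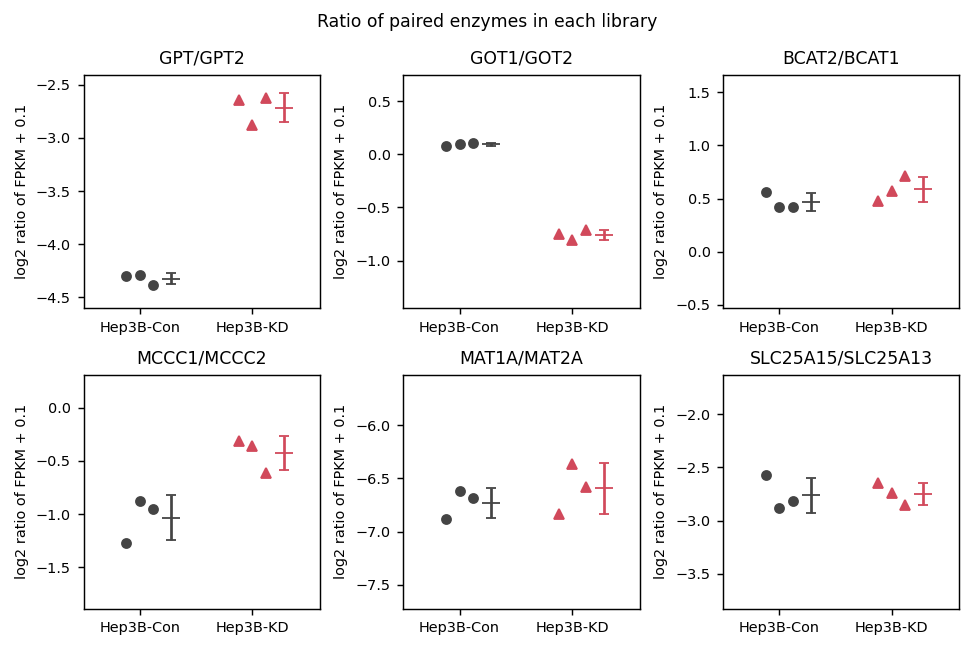
Log2 ratio of FPKM + 0.1 between the genes of 6 pairs in each library (circles Hep3B-Con, triangles Hep3B-KD), with the mean and SD of 3 libraries beside the points; every panel spans the same number of log2 units. GPT/GPT2 and MCCC1/MCCC2 lie higher and GOT1/GOT2 lower in all 3 Hep3B-KD libraries, and the other 3 pairs overlap.

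The largest change of any member was in histidine breakdown. HAL, the histidine ammonia-lyase that removes ammonia from histidine in the first step (chr12:95972662-95996365, GRCh38), measured 5.57, 6.19 and 5.69 FPKM in Hep3B-Con and 1.005, 1.32 and 0.972 FPKM in Hep3B-KD, from 487 to 554 reads and 82 to 109 reads. The lowest Hep3B-Con library was more than 4 times the highest Hep3B-KD library. The group means were 5.82 ± 0.33 and 1.099 ± 0.19 FPKM (SD over 3 libraries), and the log2 fold change was -2.31 ± 0.12 (SE, limma adjusted p = 9.69e-06). UROC1, the urocanase of the second step, had 1 to 7 reads per library and was not tested.

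The largest rise was in lysine breakdown. AASS, the mitochondrial enzyme that carries out the first 2 reactions of lysine degradation through saccharopine (chr7:122075647-122144280, GRCh38), measured 1.61, 1.69 and 1.35 FPKM in Hep3B-Con and 4.78, 4.83 and 4.57 FPKM in Hep3B-KD, from 103 to 135 reads and 348 to 356 reads. All Hep3B-KD libraries lay well above all Hep3B-Con libraries, with a log2 fold change of 1.55 ± 0.09 (SE, limma adjusted p = 1.70e-05). ALDH7A1, the antiquitin dehydrogenase of the next step, measured 5.01, 5.35 and 5.18 FPKM in Hep3B-Con and 5.84, 5.95 and 6.14 FPKM in Hep3B-KD. It was higher by a log2 fold change of 0.20 (limma adjusted p = 0.00763), a call lost when the libraries were centred on the median log ratio (0.10) and under quantile normalisation (0.07).

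In proline and ornithine breakdown 2 of 3 members were tested, and both were lower (beside 23.8% of all genes). OAT, the ornithine aminotransferase that links the urea cycle to proline and glutamate (chr10:124397303-124418976, GRCh38), measured 7.12, 7.51 and 6.97 FPKM in Hep3B-Con and 3.13, 3.49 and 4.27 FPKM in Hep3B-KD, a log2 fold change of -0.98 ± 0.11 (SE, limma adjusted p = 0.000298). This was just short of 2-fold with all libraries and past it without Hep3B-Con replicate 3 (-1.0024) or Hep3B-KD replicate 3 (-1.0997). ALDH4A1, which oxidises pyrroline-5-carboxylate to glutamate, measured 9.06, 8.98 and 10.1 FPKM in Hep3B-Con and 6.31, 6.33 and 6.18 FPKM in Hep3B-KD (log2 fold change -0.57, limma adjusted p = 0.000118). Neither gene had overlapping groups. PRODH, the proline dehydrogenase that starts this route, was at 0.125 to 0.268 FPKM and was not tested. ALDH4A1 shares 41.1% of its exon bases with an annotated gene on the same strand whose row is at a mean of 0.002 FPKM.

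Phenylalanine and tyrosine breakdown changed in both directions, with 2 of 6 tested members higher (beside 36.1% of all genes), 2 lower (beside 23.8%) and 2 not passed. HGD, the homogentisate dioxygenase, measured 18.3, 18.9 and 20.6 FPKM in Hep3B-Con and 28.6, 28.0 and 28.6 FPKM in Hep3B-KD (log2 fold change 0.56, limma adjusted p = 6.70e-05). FAH, the fumarylacetoacetase 2 steps further on, measured 4.02, 3.75 and 4.10 FPKM in Hep3B-Con and 2.53, 2.75 and 2.54 FPKM in Hep3B-KD (log2 fold change -0.59, limma adjusted p = 0.000272). These 2 genes of the same route moved in opposite directions, with no overlap in either. The steps next to HGD did not pass: HPD, the dioxygenase before it, and GSTZ1, the isomerase between HGD and FAH, had overlapping groups and log2 fold changes of -0.07 and 0.04. HPD was called lower when centred (-0.17) and under quantile normalisation (-0.19). GSTZ1 turned negative when centred (-0.07), under quantile normalisation (-0.20) and without Hep3B-Con replicate 3 (-0.02). TAT, the tyrosine aminotransferase that starts the route, was at 0.105 to 0.287 FPKM with 9 to 27 reads and was not tested.

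PCBD1 and QDPR recycle tetrahydrobiopterin, the cofactor of the hydroxylases of aromatic amino acids. PCBD1 measured 26.8, 27.3 and 29.4 FPKM in Hep3B-Con and 20.2, 20.1 and 20.5 FPKM in Hep3B-KD (log2 fold change -0.45, limma adjusted p = 8.61e-05). QDPR measured 16.5, 17.0 and 16.9 FPKM in Hep3B-Con and 18.6, 19.3 and 18.1 FPKM in Hep3B-KD (log2 fold change 0.15, limma adjusted p = 0.00632), a call lost when centred on the median log ratio (0.05). The 2 recycling enzymes moved in opposite directions by these values, neither with overlap.

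In tryptophan breakdown 1 of 4 members was tested. HAAO, the 3-hydroxyanthranilate dioxygenase of the kynurenine pathway, measured 2.88, 3.65 and 3.64 FPKM in Hep3B-Con and 5.39, 4.82 and 5.33 FPKM in Hep3B-KD, higher by a log2 fold change of 0.60 (limma adjusted p = 0.00228). The other members of this group were scarce. TDO2, which opens the tryptophan ring in liver, had 0 to 14 reads. KMO had 1 to 4 reads in Hep3B-Con and 9 to 13 reads in Hep3B-KD. KYNU had 38 to 47 reads in Hep3B-Con and 16 to 24 reads in Hep3B-KD. AFMID, a tryptophan gene outside the members, was not scarce, at means of 11.1 FPKM in Hep3B-Con and 10.6 FPKM in Hep3B-KD. It did not pass (log2 fold change -0.07, limma adjusted p = 0.358). KMO and KYNU did not overlap between groups, in opposite directions, but neither passed in the fit without a filter (limma adjusted p = 0.0561 and 0.172). KMO also shares 28.4% of its exon bases with genes on the opposite strand.

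Among the branched-chain amino acid enzymes, 2 of 5 tested members were higher (beside 36.1% of all genes), 1 was lower (beside 23.8%) and 2 did not pass. MCCC1, the biotin-carrying subunit of methylcrotonyl-CoA carboxylase in leucine breakdown, measured 8.09, 9.52 and 8.93 FPKM in Hep3B-Con and 13.5, 13.2 and 11.9 FPKM in Hep3B-KD (log2 fold change 0.54, limma adjusted p = 0.000774). Its partner subunit MCCC2 measured 19.7, 17.6 and 17.4 FPKM in Hep3B-Con and 16.8, 17.0 and 18.3 FPKM in Hep3B-KD, with overlap (log2 fold change -0.07, limma adjusted p = 0.361), and was called lower when centred (-0.17). BCKDHB, the E1 beta subunit of the branched-chain ketoacid dehydrogenase, measured 4.03, 4.62 and 4.80 FPKM in Hep3B-Con and 5.79, 5.57 and 5.71 FPKM in Hep3B-KD (log2 fold change 0.34, limma adjusted p = 0.00567), a call lost under quantile normalisation (limma adjusted p = 0.0608). The pattern within leucine breakdown was mixed. IVD, the isovaleryl-CoA dehydrogenase just before MCCC1, measured 15.8, 16.6 and 16.6 FPKM in Hep3B-Con and 14.2, 12.6 and 13.6 FPKM in Hep3B-KD (log2 fold change -0.28, limma adjusted p = 0.0026). BCAT2, the mitochondrial aminotransferase of the first step, measured 13.1, 12.2 and 12.4 FPKM in Hep3B-Con and 11.1, 10.97 and 12.7 FPKM in Hep3B-KD and did not pass (limma adjusted p = 0.143), but was called lower when centred (-0.22) and without Hep3B-KD replicate 3 (-0.19).

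Of the glycine cleavage system, GLDC, the glycine decarboxylase, was abundant. It measured 26.7, 27.3 and 27.6 FPKM in Hep3B-Con and 32.3, 32.4 and 34.0 FPKM in Hep3B-KD, higher in every library (log2 fold change 0.27, limma adjusted p = 0.000254). GCSH, its lipoate-carrying partner, was at 0.514 to 0.867 FPKM with overlap (log2 fold change -0.23, 95% interval -0.77 to 0.31). The processed copy GCSHP5 stood at 7.90 and 7.40 FPKM in the 2 groups, so reads of GCSH may have been assigned to it and the level of GCSH is uncertain. AMT, the aminomethyltransferase, had 0 to 3 reads in Hep3B-Con and 5 to 13 reads in Hep3B-KD in a row of largely shared exons, and SDS, the serine dehydratase, had at most 3 reads in every library.

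In methionine and transsulfuration, 1 of 3 tested members was lower (beside 23.8% of all genes) and 2 did not pass. CBS, the cystathionine beta-synthase that commits homocysteine to cysteine, measured 11.4, 12.2 and 12.2 FPKM in Hep3B-Con and 9.46, 9.19 and 9.55 FPKM in Hep3B-KD (log2 fold change -0.34, limma adjusted p = 0.000441). Its near-identical copy CBSL stood at 1.52 and 1.27 FPKM, so reads may be shared between them. CTH, which splits cystathionine, measured 2.15, 2.62 and 2.39 FPKM in Hep3B-Con and 3.27, 2.50 and 2.62 FPKM in Hep3B-KD, with overlap (log2 fold change 0.22, limma adjusted p = 0.174). MAT1A, the liver form of methionine adenosyltransferase, was at 0.895 to 1.35 FPKM in the 6 libraries and did not pass (log2 fold change 0.15), whereas MAT2A, the form of dividing cells and a gene outside the 48, was at 117.5 to 121.2 FPKM. BHMT and GNMT, which remethylate homocysteine and use up methyl groups in liver, had at most 10 reads in any library. CTH and MAT1A had the opposite sign under quantile normalisation (-0.0049 and -0.12).

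The promoter of GOT1 is shown because it holds a motif of a measured stress regulator, ATF4. RefSeq promoter windows (GRCh38.p14, 250 bases before to 50 after the annotated start) were at hand for 42 of the 48 members and were searched on both strands. The CARE motif TGATGCAA, the composite element bound by ATF4 with C/EBP proteins, was found in 1 member promoter, GOT1, starting 198 bases before the annotated start, and in 0.92% of 27305 promoters. Capitals mark the motif, which is read on the other strand as TTGCATCA.
GOT1 promoter, chr10:99430575-99430874 (-): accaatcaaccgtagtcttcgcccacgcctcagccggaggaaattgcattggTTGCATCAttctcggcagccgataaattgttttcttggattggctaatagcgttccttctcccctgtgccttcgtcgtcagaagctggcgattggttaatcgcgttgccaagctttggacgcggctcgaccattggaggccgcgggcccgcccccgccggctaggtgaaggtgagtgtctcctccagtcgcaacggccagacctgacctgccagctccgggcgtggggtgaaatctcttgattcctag

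The C/EBP motifs TTGCGCAA and TTGCACAA were in no member promoter and in 0.13% and 0.79% of all promoters. The CRE motif TGACGTCA was in 1, ARG2, at 2 places, and in 1.98% of all promoters. The TATA motif TATAAA was in 7 (ARG1, BHMT, HAL, KMO, KYNU, OTC and TDO2), against 11.95% of all promoters. Of those 7 members, HAL alone reached the minimum level for the test. Its match started 22 bases after the annotated start, whereas the matches of the others lay before it, at 29 bases in ARG1, BHMT and KMO. No binding was measured in this series, and these matches describe letters in a window only.

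The transcription factors that are known to drive these enzymes in liver were lower wherever they were called, and a coactivator was higher. Of 7 regulators on the list, 5 fell (beside 23.8% of all genes), 1 rose (beside 36.1%) and 1 did not pass. CEBPA, which drives urea cycle genes in hepatocytes, measured 33.7, 32.0 and 33.6 FPKM in Hep3B-Con and 14.7, 16.1 and 15.1 FPKM in Hep3B-KD (log2 fold change -1.11, limma adjusted p = 2.66e-06). ATF4, the effector of amino acid shortage, fell from 216.4 ± 6.06 to 129.2 ± 2.30 FPKM (SD, n = 3, log2 fold change -0.74). HNF4A (-0.35), CEBPB (-0.46) and the glucocorticoid receptor NR3C1 (-0.23) were lower too, and the coactivator PPARGC1A was higher (1.006, from 0.512 to 1.12 FPKM). Whether these factors had a part in the changes of the enzymes was not tested.

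Other genes of amino acid breakdown were read from a list of 58, of which 57 had a row and 48 were tested. Of these 48, 36 differed (75.0%, beside 59.9% of all genes), 27 higher (beside 36.1%) and 9 lower (beside 23.8%), with a median log2 fold change of 0.26. Centred on the median log ratio 23 were called higher and 12 lower, and the median was 0.16. In the branched-chain amino acid group 11 of 16 were higher (beside 36.1% of all genes) and 2 lower (beside 23.8%). Some of these higher calls were lost when the libraries were centred. The 2 that were lower were BCAT1, the cytosolic aminotransferase (log2 fold change -0.24), and BCKDK, the kinase that switches off the branched-chain ketoacid dehydrogenase, which fell from 15.7 to 10.2 FPKM (-0.61). PPM1K, the phosphatase that switches the same complex on, rose from 0.477 to 1.24 FPKM (log2 fold change 1.21, limma adjusted p = 0.000924), but it passed the minimum level through Hep3B-KD alone, the group in which it was higher, and its log2 fold change was 0.60 with a pseudocount of 1.

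ACADSB, the short branched-chain acyl-CoA dehydrogenase of isoleucine breakdown, had the largest rise on this list, from 3.14 to 9.31 FPKM (log2 fold change 1.54, limma adjusted p = 2.73e-06). AGXT, the liver alanine-glyoxylate aminotransferase, rose from 0.525 to 1.66 FPKM (1.498), and SARDH, which demethylates sarcosine, rose from 3.15 to 6.68 FPKM (1.06). PYCR1, which makes proline from pyrroline-5-carboxylate, had the largest fall, from 17.5 to 5.14 FPKM (log2 fold change -1.75, limma adjusted p = 7.12e-07). Thus OAT, ALDH4A1 and PYCR1, which make, oxidise and reduce pyrroline-5-carboxylate, were all lower. GLUD2 (-1.17), whose reads cannot be told surely from those of GLUD1, and AHCY, the S-adenosylhomocysteine hydrolase (-0.47), completed the largest falls.

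A few further genes were named after their values had been seen. GLUL, the glutamine synthetase that takes up ammonia left by the urea cycle, measured 42.0, 43.9 and 44.1 FPKM in Hep3B-Con and 86.9, 87.2 and 88.0 FPKM in Hep3B-KD (log2 fold change 1.011, limma adjusted p = 4.98e-07). In choline breakdown CHDH (log2 fold change 0.84) and DMGDH (0.90) were higher like SARDH, and in valine breakdown ALDH6A1 was higher (0.95). All 4 had groups that did not overlap, as had 66.9% of all genes.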

How the data were processed

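Total RNA of 6 Hep3B libraries was sequenced by the authors after TruSeq library preparation. The deposited table gives FPKM values, made by the authors with Bowtie2 2.0.6 and TopHat2 2.0.12 on GRCh37 per the submitters' processing notes; the counting tool is not given in the sources used here. All 29908 identifiers were found in GENCODE release 29 (GRCh38), whose exon lengths turned every value above 0 (100.0%) into whole reads within 0.01, so that annotation was used for names and coordinates. Whether reads were realigned to it is not known.

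Differences were tested with limma 3.58.1 (R 4.3.3, eBayes with trend) on log2(FPKM + 0.1) for 14221 rows with a mean of at least 0.5 FPKM, adjusted by Benjamini-Hochberg over all of them. A fold change is on that scale, which understates changes of low genes. Ratios of gene pairs were compared with a two-sided exact permutation test. The code was tested on simulated data. Alternatives were another pseudocount (0.01 or 1), filter (none or 1 FPKM), scaling, model, replicate block, voom on the recovered reads and leaving out each library.

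Named were all 48 members, DAGLA, the regulators, the genes of pairs and the 4 largest rises and falls of the other pathway genes among those called without overlap. MAT2B, ASRGL1 and ASPG were named for their seed match. Members and lists were chosen with earlier results of these data known. IDO1 and CD68 were not analysed here, and single values of a few listed genes and 1 motif are not reported here. Sequences came from the study's hairpin list, the annotation's genome and RefSeq.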

Additional observations from a re-analysis of the deposited data

How the results depend on the processing

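Leaving out single libraries changed the SLC25A15/SLC25A13 ratio difference from 0.01 to between -0.0488 and 0.11, the members higher past 2-fold from 1 to between 1 and 2 (GPT joined without Hep3B-KD replicate 2) and those lower past 2-fold from 1 to between 1 and 2 (OAT joined without Hep3B-Con or Hep3B-KD replicate 3). Members lower past 2-fold numbered 3 when centred on the median log ratio (HAL, OAT and GOT1) and 2 under quantile normalisation. Pathway genes higher past 2-fold fell from 5 to 3 under either of these and to 1 with a pseudocount of 1, which shrinks low genes. The median over members was 0.0017 with no filter on low values, -0.17 when centred and -0.12 under quantile normalisation. Signs changed for ASL (-0.14 to 0.0037 without 1 library, the highest without Hep3B-KD replicate 3), GSTZ1 (-0.067 centred, -0.20 quantile, -0.0236 to 0.0713 without 1 library, the lowest without Hep3B-Con replicate 3), MAT2A (-0.0929 centred, -0.0003 to 0.0219 without 1 library, the lowest without Hep3B-Con replicate 1) and, under quantile normalisation, ARG2 (-0.0061), NAGS (-0.12), GLUD1 (0.0773), GOT2 (0.0565), CTH (-0.0049) and MAT1A (-0.12). MAT2A was called lower when centred (limma adjusted p = 0.00365) and higher under quantile normalisation (0.19, limma adjusted p = 0.0005). The cause of these changes was not tested. Deviations from the group means were not shared by same-numbered libraries, with correlations of -0.0134, -0.0656 and -0.0011. This cannot show whether the replicates were prepared in pairs. With a replicate block no gene recomputed singly changed its call or sign, and HAL stayed at -2.31 (limma adjusted p = 0.000203). In that fit 26 pathway genes were higher and 8 lower in place of 27 and 9. Of 844 single values recomputed, 815 kept their sign and call. Below about 50 reads per library, as in CPS1, OTC, ARG1 and KMO, depth limits what could be detected.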
